A study of Mus musculus with 6 samples.

Results

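The 34 genes described here are the cadherins, the nonclustered protocadherins and the Fat and Dachsous genes, measured in mouse heads at embryonic day 8.5 (E8.5). They were taken as a fixed list of gene symbols: 14 classical cadherins, 4 cadherins outside the classical types, 11 nonclustered protocadherins, Fat1 to Fat4 and Dchs1. The epithelial and endothelial cadherins Cdh1, Cdh3 and Cdh5 were left out of the list, and the clustered protocadherins are not in it. All 34 were measured, among 19938 genes with a probe set that the array annotation pairs with exactly 1 gene symbol. Genes with more than 1 such probe set are represented by the one with the highest mean over the 6 arrays.

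Both groups were on a C57BL/6 background, were collected at E8.5 and received no treatment. Heterozygotes carried 1 Jarid1b allele from which exon 6 had been removed, after a cross of a conditional allele with Cmv-cre mice, and knockouts carried this deletion on both alleles. Each sample pooled 4 heads, and each genotype had 3 pools. Wild-type heads were not analysed here, so the comparison is between 1 intact allele and none. The purpose of the arrays was to ask which transcripts differ in the early head when this histone demethylase, which removes methyl groups from lysine 4 of histone H3, is absent.

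Cadherins are transmembrane proteins whose calcium-binding extracellular repeats join neighboring cells, mostly by binding the same cadherin on the next cell. Classical cadherins hold catenins on their cytoplasmic side, which link them to actin, and the neural plate is known for replacing Cdh1 with Cdh2 as it folds and separates from the surface ectoderm. Nonclustered protocadherins adhere more weakly and several recruit the WAVE actin regulator, while the giant Fat and Dachsous cadherins bind one another across cell borders and act in planar polarity and in the Hippo pathway.

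Values are log2 of the deposited array intensities, and a log2 fold change is the knockout mean minus the heterozygote mean. Jarid1b itself, listed as Kdm5b, was at 9.17, 9.12 and 9.16 in the heterozygote pools and at 7.63, 7.47 and 7.71 in the knockout pools. It fell by 1.55 on the log2 scale (SE 0.07, limma, adjusted p = 6.29e-04). It was the only probe set of 21789, or 0.00459%, that passed an adjusted p of 0.05. The position of its probes relative to exon 6 was not checked. The pools were also unlike in ways the genotype does not name. Heterozygote replicate 2 and knockout replicate 2 were low in Xist, the transcript of the inactive X chromosome, with 4.22 and 3.74 against 8.82 to 10.17 in the other 4 pools. Those other 4 were not matched in their Y-linked genes. Uty was at 5.77 in both other heterozygote pools and at 7.20 and 7.17 in the other knockout pools, and Kdm5d was at 6.37 and 6.35 against 7.57 and 7.70. Pools with more Y-linked RNA were thus unevenly spread over the genotypes, and the part of this in the results was not tested. The summed intensity of 6 measured markers of primitive blood reached 1816 in knockout replicate 2 against 238 to 480 elsewhere, and that of 7 markers of yolk sac visceral endoderm was 3403 in knockout replicate 3 against 6511 to 7636 elsewhere. Of 7 neuroectoderm markers, 5 had a log2 fold change above 0 and 2 below. Hes5 (0.23) and Sox1 (0.20) were higher at an unadjusted p under 0.05 (limma adjusted p = 0.42 and 0.44), beside 5.97% of all probe sets. The lowest was Otx2 (-0.08), whose knockout pools lay below the heterozygote ones, beside 9.03% of all probe sets. Of 7 head mesenchyme markers, 1 was above 0 and 6 below. Of 7 heart markers, 2 were above 0 and 5 below. Hand2 (-0.24), Gata4 (-0.22) and Tbx5 (-0.30) were lower at an unadjusted p under 0.05, beside 4.66% of all probe sets. Of 6 neural crest markers, 4 were above 0 and 2 below, and Tfap2b (0.29) was higher at that p. The summed markers of neuroectoderm and of head mesenchyme overlapped between the groups, at 2338 to 2439 against 2370 to 2465 and at 2509 to 2602 against 2480 to 2533. Each sample is bulk tissue, so fewer cells of a type and less RNA per cell cannot be told apart.

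None of the 34 members passed the adjusted threshold, and the lowest adjusted p among them was 0.42 (limma, Benjamini-Hochberg over all probe sets). The log2 fold changes ran from -0.11 for Pcdh20 to 0.25 for Pcdh17, with 23 members above 0 and 11 below. Their median was 0.022, or -0.0016 after cyclic loess normalization, beside -0.001 over all tested probe sets. Without adjustment, 3 members were higher in knockouts at p under 0.05 (Cdh22, Pcdh8 and Pcdh17) and 0 were lower, beside 5.97% of all probe sets higher and 4.66% lower. This split did not hold under other scalings. Quantile normalization gave 1 higher (Cdh11) and 1 lower (Pcdh20), beside 4.13% and 3.90% of all probe sets. Cyclic loess gave 2 higher (Cdh11 and Pcdh17) and 1 lower (Pcdh20), beside 3.85% and 4.57% of all probe sets. The knockout pools lay wholly above the heterozygote pools for 4 members and wholly below for 1, beside 8.03% and 9.03% of all probe sets. These counts are near the background. All 34 confidence intervals (95%) lay within a 1.5-fold change in either direction, and 31 of them held 0. Over all 21789 probe sets, these counts were 21395 and 19472.

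**Figure D1:**
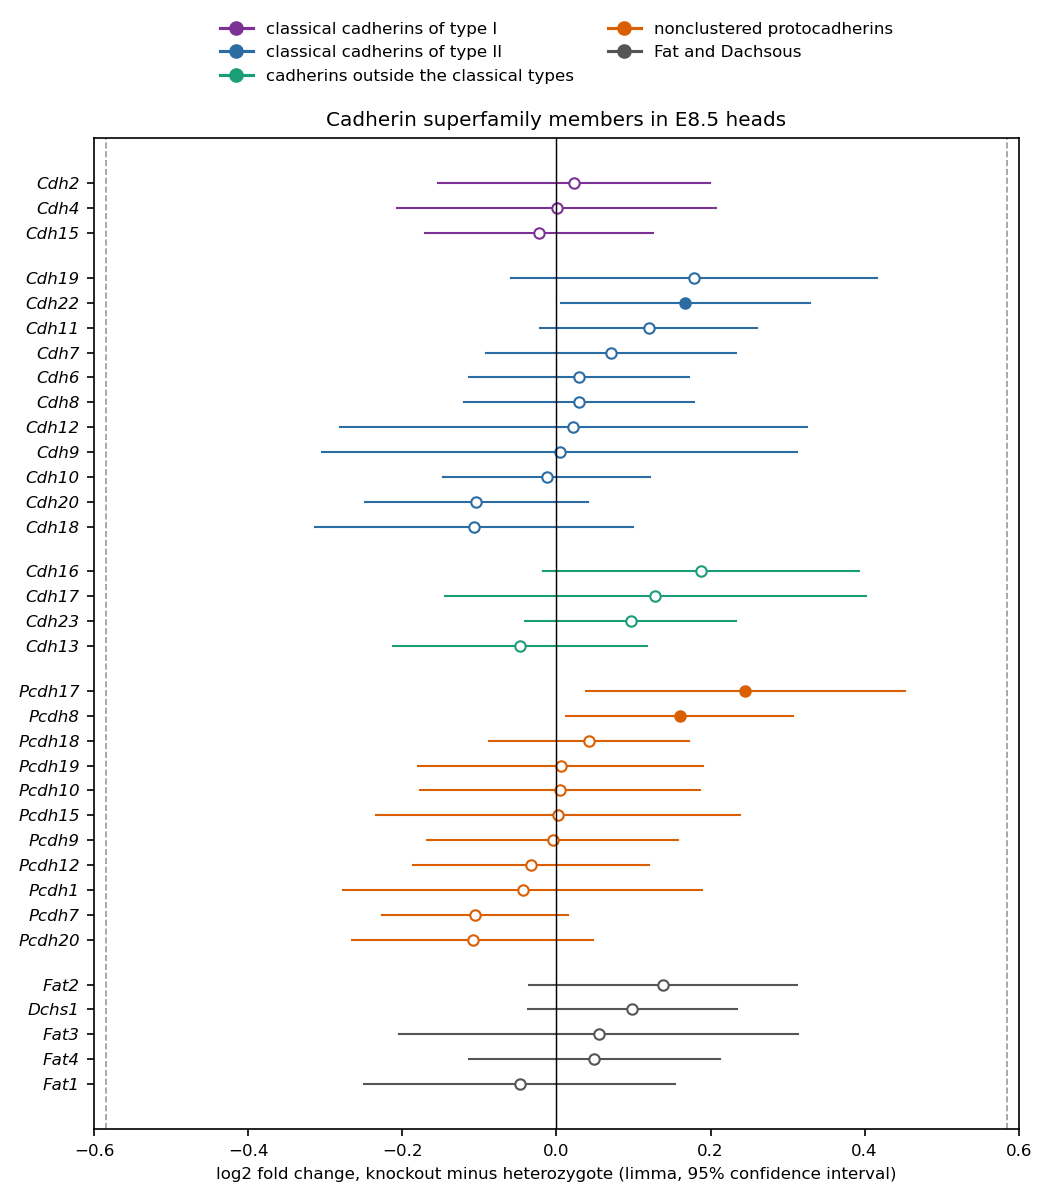
Log2 fold change of each of the 34 members, knockout minus heterozygote (horizontal axis), grouped by class, with its 95% confidence interval from limma. Filled points mark Cdh22, Pcdh8 and Pcdh17, at an unadjusted p under 0.05, and dashed lines mark a 1.5-fold change, which no interval reached.

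The background moved with intensity, which was described by ranking all probe sets into dim, middle and bright classes of 7263 each. In the dim class, 10.5% of probe sets were higher and 1.57% lower (unadjusted p under 0.05), while in the bright class 0.716% were higher and 6.71% lower. The middle class stood at 6.72% and 5.71%. Probe sets whose knockout pools lay wholly above made up 12%, 8.99% and 3.06% of the dim, middle and bright classes, and those with the knockouts wholly below 2.05%, 8.22% and 16.8%. The median log2 fold change was 0.056 in the dim class and -0.035 in the bright class. Of the members, 15 were dim, 13 were in the middle class and 6 were bright (Cdh2, Cdh6, Cdh11, Pcdh7, Pcdh18 and Fat1). Their medians in those classes were 0.022, 0.005 and 0.026. Cdh22, Pcdh8 and Pcdh17 all lay in the middle class. The 6 bright members thus had a median above 0 where bright probe sets as a whole lay below it. That difference has no test here.

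**Figure D2:**
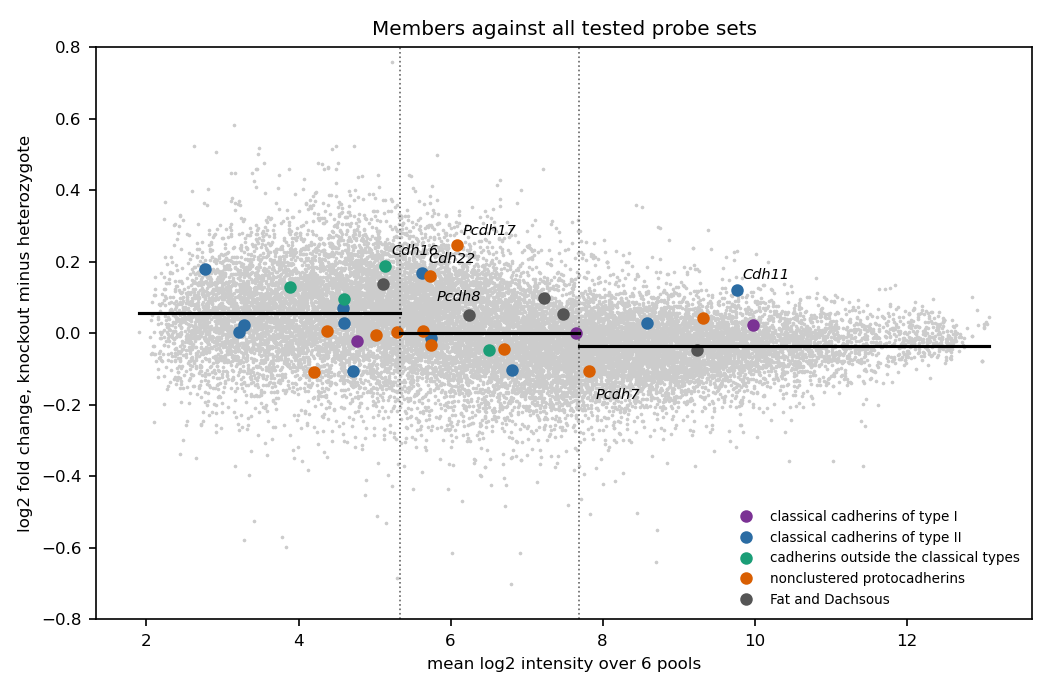
Log2 fold change (vertical axis) against mean log2 intensity over the 6 pools (horizontal axis) for all tested probe sets in gray and the members in color, with 9 probe sets outside the vertical range not drawn. Dotted lines separate the dim, middle and bright classes, and black bars give the median of each class, which steps down from 0.056 to -0.035.

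The sequences just upstream of some members are shown first, since trimethylation of H3K4, the mark that Jarid1b removes, is known to sit at CpG-rich start sites. This mark was not measured on these arrays, and no member passed the adjusted threshold. RefSeq start sites of the build GRCm38.p6 were matched for 24 of the 34 members. In the 250 bases upstream, these 24 held a median of 9 CpG dinucleotides (2 in Fat1 and Cdh10 to 30 in Cdh22), beside a median of 6 over 27025 genes, and 15 of the 24 lay above that median. Below are the 150 bases upstream of the start, 5′ to 3′ on the strand of the gene, with each CpG in capitals, for the 3 members at an unadjusted p under 0.05 and for Pcdh7, whose knockout pools lay below. The windows are chr2:165234738-165234887 on the minus strand, chr14:84443413-84443562 on the plus strand, chr14:79771313-79771462 on the minus strand and chr5:57717931-57718080 on the plus strand.
Cdh22: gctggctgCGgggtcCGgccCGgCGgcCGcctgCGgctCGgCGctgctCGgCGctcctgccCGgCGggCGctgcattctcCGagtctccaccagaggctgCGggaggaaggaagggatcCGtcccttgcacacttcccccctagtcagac
Pcdh17: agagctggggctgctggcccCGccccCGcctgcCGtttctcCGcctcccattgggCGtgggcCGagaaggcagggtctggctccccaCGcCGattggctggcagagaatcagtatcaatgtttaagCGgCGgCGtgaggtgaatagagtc
Pcdh8: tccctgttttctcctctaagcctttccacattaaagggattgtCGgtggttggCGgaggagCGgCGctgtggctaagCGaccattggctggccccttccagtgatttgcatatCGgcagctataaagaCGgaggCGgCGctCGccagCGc
Pcdh7: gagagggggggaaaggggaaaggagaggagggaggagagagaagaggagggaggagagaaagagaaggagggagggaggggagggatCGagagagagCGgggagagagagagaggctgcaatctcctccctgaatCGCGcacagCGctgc

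These 150 bases hold 16 CpG in Cdh22, 11 each in Pcdh17 and Pcdh8 and 5 in Pcdh7, where the median over all genes is 4. The stretch before Pcdh7 is mostly a run of purines, and its CpG lie in the part nearer the start. The letters CCAAT, read on both strands, occur 2 times in the Pcdh17 stretch and 1 time in that of Pcdh8, which also holds TATAAA. Over the full 250 bases, CCAAT was present in 13 of 24 members (54.2%) against 34.5% of all genes, and TATAAA in 2 of 24 (8.33%) against 13.0%. The E-box CAGGTG, the letters bound by Snail and Zeb repressors in the promoter of Cdh1, was present upstream of 3 members (Cdh7, Pcdh15 and Fat1), or 12.5%, against 17.1% of all genes. From 30 down to 16 CpG in the 250 bases, the members were Cdh22, Fat3, Pcdh18, Pcdh10, Pcdh17, Cdh8, Pcdh9 and Pcdh19. Their log2 fold changes in that order were 0.17, 0.05, 0.04, 0.005, 0.25, 0.03, -0.005 and 0.005. At the low end, Pcdh20 and Fat2 with 3 CpG had -0.11 and 0.14, and Fat1 and Cdh10 with 2 had -0.05 and -0.01. The 12 members with more than 9 CpG had a median log2 fold change of 0.046, and the 12 with 9 or fewer had -0.005. This split was given no test, and any link to H3K4 methylation was not tested.

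Of the type I classical cadherins, Cdh2 (N-cadherin) is the adhesion molecule of the neuroepithelium. It was at 9.93, 9.99 and 9.98 in the heterozygote pools and at 9.84, 10.11 and 10.02 in the knockout pools. The knockout values lay on both sides of the heterozygote ones, and their spread was wider (SD 0.14 against 0.03, n = 3 each). The log2 fold change was 0.02 (SE 0.08, 95% confidence interval -0.15 to 0.20, limma adjusted p = 0.94). Cdh4, the R-cadherin of retina and brain, had equal means of 7.65 in both groups, with an interval from -0.21 to 0.21. Cdh15, the cadherin of muscle, had -0.02 and lay in the dim class.

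Among the 11 type II classical cadherins, 8 log2 fold changes were above 0 and 3 below, with a median of 0.03. Cdh11, which marks mesenchyme, was at 9.76, 9.66 and 9.69 in heterozygotes and at 9.75, 9.88 and 9.84 in knockouts. Knockout replicate 1 lay within the heterozygote range and the other 2 knockout pools lay above it. Its log2 fold change was 0.12 (SE 0.06, interval -0.02 to 0.26, limma adjusted p = 0.52). It was 0.09 without knockout replicate 2 and 0.16 without knockout replicate 1. With cyclic loess normalization it was 0.15.

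Cdh22, a type II cadherin known from the brain, was at 5.51, 5.56 and 5.54 in heterozygotes and at 5.63, 5.65 and 5.84 in knockouts. The groups did not overlap, and knockout replicate 3 stood above the other knockout pools. Its log2 fold change was 0.17, or 1.12-fold (SE 0.07, interval 0.006 to 0.33, limma adjusted p = 0.46). Without knockout replicate 3 it was 0.10, and the unadjusted p was under 0.05 in 5 of 15 alternatives. Of the other type II members, Cdh19, known from the Schwann cell lineage, had 0.18 and the largest estimate of its class, with values from 2.55 to 2.97, near the dim end of the array. Cdh20 and Cdh18 had the lowest, -0.10 and -0.11, while the dimmer of the 2 probe sets of Cdh18 had 0.03. Cdh6, which is known from neural folds and kidney, had 0.03, and Cdh7, known from neural crest, had 0.07. Cdh8, Cdh9, Cdh10 and Cdh12, which are best known for the wiring of neurons, had 0.03, 0.004, -0.01 and 0.02.

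The widest ranges within a group were found for a pair of dim members. Cdh9 had the widest range among heterozygotes, with 3.31, 2.99 and 3.35, beside 3.04, 3.16 and 3.47 in knockouts. Cdh12 had the widest among knockouts, with 3.25, 3.06 and 3.56, beside 3.24, 3.43 and 3.14 in heterozygotes. In both genes the groups overlapped, and the intervals reached from -0.30 to 0.31 and from -0.28 to 0.33.

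The 4 cadherins outside the classical types had a median of 0.11. Cdh23, which forms the upper part of the tip link of hair cells, was at 4.62, 4.56 and 4.47 in heterozygotes and at 4.63, 4.64 and 4.67 in knockouts. The groups did not overlap, but heterozygote replicate 1 and knockout replicate 1 lay next to each other. Its log2 fold change was 0.10 (SE 0.06, limma adjusted p = 0.59), and the gene lay in the dim class, where 12% of probe sets had knockouts wholly above. Cdh16, a kidney cadherin, and Cdh17, a cadherin of intestine and fetal liver, had 0.19 and 0.13. Knockout replicate 1 held the highest value of both, 5.37 for Cdh16 and 4.24 for Cdh17, and without it Cdh17 had -0.01. Cdh13, which is held by a lipid anchor in place of a transmembrane segment, had -0.05.

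**Figure D3:**
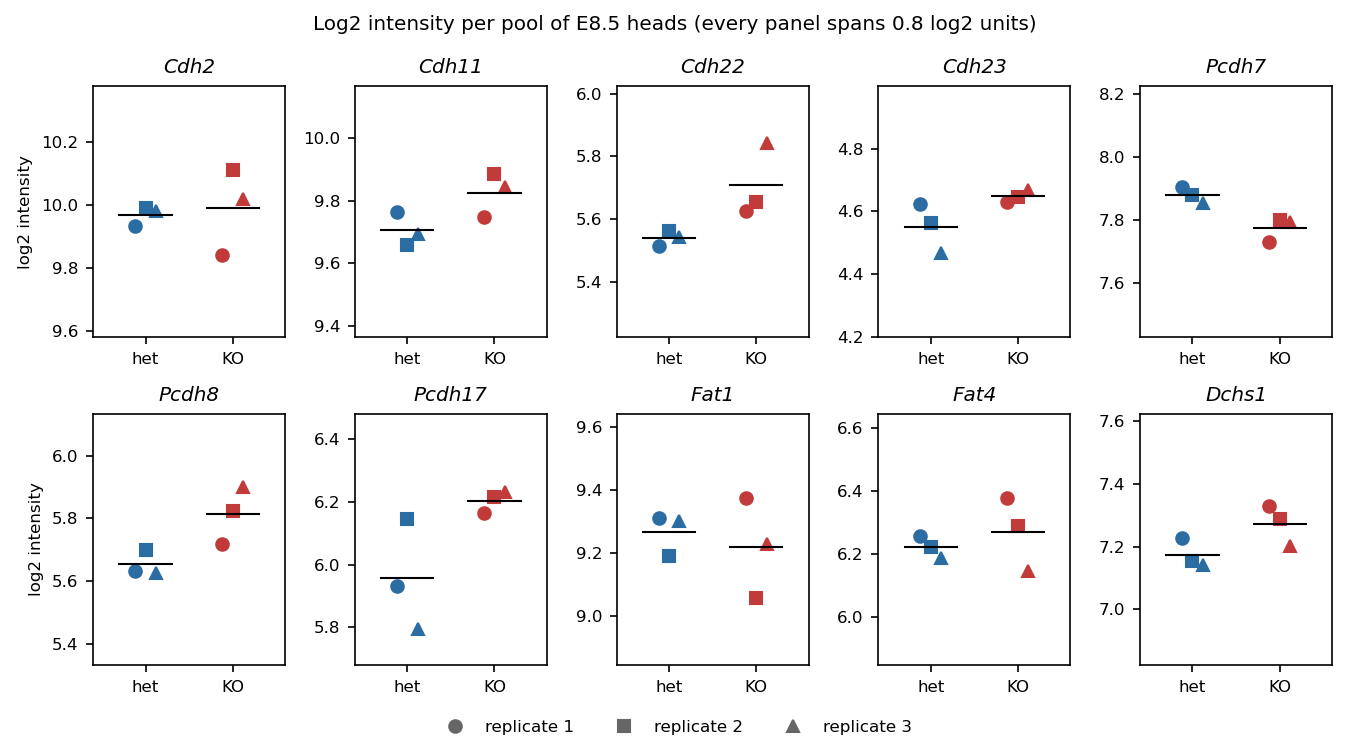
Log2 intensity in each pool for 10 members, with heterozygotes at the left and knockouts at the right of each panel, the replicate number given by the marker shape and the group mean by a bar. Every panel spans 0.8 log2 units. The groups do not overlap for Cdh22, Cdh23, Pcdh8 and Pcdh17, with the knockouts above, and for Pcdh7, with the knockouts below.

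Of the 11 nonclustered protocadherins, 6 log2 fold changes were above 0 and 5 below, with a median of 0.002. Pcdh17, which acts at synapses and on growing axons, was at 5.93, 6.15 and 5.80 in heterozygotes and at 6.16, 6.22 and 6.23 in knockouts. The knockout pools were close together, and the heterozygote pool nearest to them was replicate 2. Uty was at 7.60 in that pool and at 5.77 in the other heterozygote pools, against 7.20, 7.48 and 7.17 in knockouts. The part of Y-linked RNA in the values of Pcdh17 was not tested. The difference of 0.25, or 1.19-fold, was the largest of the members (SE 0.09, interval 0.04 to 0.45, limma adjusted p = 0.42). Leaving out 1 pool at a time gave 0.16 to 0.34, the lowest without heterozygote replicate 3. Without both pools low in Xist the estimate was 0.33. The pools left then differ by genotype in Y-linked RNA, so the 2 cannot be told apart. The unadjusted p was under 0.05 in 10 of 15 alternatives.

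Pcdh8, known as paraxial protocadherin for its place in the forming somites, was at 5.63, 5.70 and 5.63 in heterozygotes and at 5.72, 5.82 and 5.90 in knockouts. The groups did not overlap, with heterozygote replicate 2 and knockout replicate 1 the nearest to each other. The difference was 0.16, or 1.12-fold (SE 0.06, interval 0.01 to 0.31, limma adjusted p = 0.44). The unadjusted p was under 0.05 in 6 of 15 alternatives, and the replicate block was not among them, as it was not for Cdh22. Pcdh8 and Pcdh17 are neighbors on chromosome 14, with 1 protein-coding gene, Olfm4, between them in the RefSeq order. Pcdh20 follows after 2 more, and Pcdh9 is next to it, with log2 fold changes of -0.11 and -0.005. The 4 protocadherins of this stretch therefore had estimates on both sides of 0.

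Pcdh7, whose cytoplasmic tail binds the histone chaperone Set, was at 7.90, 7.88 and 7.86 in heterozygotes and at 7.73, 7.80 and 7.79 in knockouts. All 3 knockout pools lay below all 3 heterozygote pools, with knockout replicate 1 the lowest. This gave a log2 fold change of -0.11 (SE 0.05, interval -0.23 to 0.015, limma adjusted p = 0.52). Pcdh7 lay in the bright class, where 16.8% of probe sets had knockouts wholly below. Pcdh10, Pcdh18 and Pcdh19, which are known to bind the WAVE complex or to act with it on actin, had 0.005, 0.04 and 0.005. Pcdh1, known from airway epithelium, had -0.04 and Pcdh12, a protocadherin of endothelium, had -0.03. Pcdh15, the lower part of the tip link, had 0.002 with its brighter probe set and 0.15 with its dimmer one. On the dimmer one the groups did not overlap (limma adjusted p = 0.45).

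Fat4 and Dchs1 are the receptor and ligand pair of the pathway. Fat4 was at 6.26, 6.22 and 6.19 in heterozygotes and at 6.38, 6.29 and 6.15 in knockouts, so that 2 knockout pools lay above the heterozygote range and 1 below. The log2 fold change was 0.05 (SE 0.07, interval -0.11 to 0.21, limma adjusted p = 0.82). Dchs1 was at 7.23, 7.16 and 7.14 in heterozygotes and at 7.33, 7.29 and 7.20 in knockouts, where replicate 3 lay inside the heterozygote range. The log2 fold change was 0.10 (SE 0.06, interval -0.04 to 0.23, limma adjusted p = 0.58).

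Fat1, which binds regulators of actin, was at 9.31, 9.19 and 9.30 in heterozygotes and at 9.37, 9.05 and 9.23 in knockouts. The groups overlapped, and the lowest 2 values were those of the 2 pools low in Xist. The log2 fold change was -0.05 (SE 0.09, interval -0.25 to 0.15, limma adjusted p = 0.87). Fat2, which is known from cerebellar granule cells, had 0.14. Fat3, known from retinal amacrine cells, was the member with the most probe sets, 15, and each of them named Fat3 alone. Their log2 fold changes ran from -0.17 to 0.31 with a median of 0.05, 11 above 0 and 4 below. The brightest, which stood for the gene, was at 7.65, 7.34 and 7.37 in heterozygotes and at 7.63, 7.31 and 7.59 in knockouts, with a log2 fold change of 0.05 (interval -0.20 to 0.31). Only 1 of the 15 had an unadjusted p under 0.05. It was at 5.86, 5.62 and 5.52 in heterozygotes and at 6.15, 5.90 and 5.88 in knockouts, without overlap (log2 fold change 0.31, limma adjusted p = 0.42). The probe sets of 1 gene are read from the same RNA and are not replicates.

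**Figure D4:**
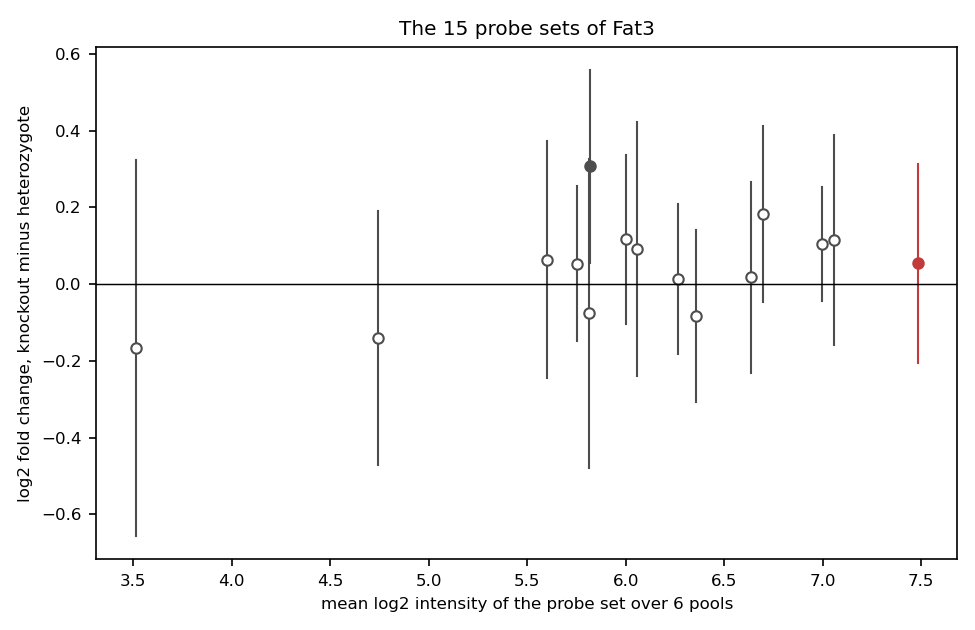
Log2 fold change, knockout minus heterozygote (vertical axis), of the 15 probe sets of Fat3 against their mean log2 intensity over the 6 pools (horizontal axis), with 95% confidence intervals. The red point is the brightest probe set, at 0.05, which stands for the gene, and the filled gray point is the probe set at 0.31 with an unadjusted p under 0.05.

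The members spread more among the knockout pools than among the heterozygote pools, which is given as a description with no test. The SD was larger in knockouts for 27 of 34 members (79.4%), beside 57.4% of all probe sets, and the median SD was 0.117 in knockouts and 0.066 in heterozygotes, beside 0.085 and 0.073 over all. Knockout replicates 1 and 3 each held the highest value for 9 members, beside 18.6% and 19.2% of all probe sets. Knockout replicate 2 held the lowest for 10, beside 15.8% of all probe sets. Heterozygote replicate 3 was the highest for 2, beside 16.3% of all probe sets. Over all 6 pools the range of a member was between 0.15 and 0.50, with a median of 0.26, which is the median range of all probe sets as well. The blood-rich pool (knockout replicate 2) and the pool low in visceral endoderm markers (knockout replicate 3) are both knockouts, and their part in this spread was not tested.

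**Figure D5:**
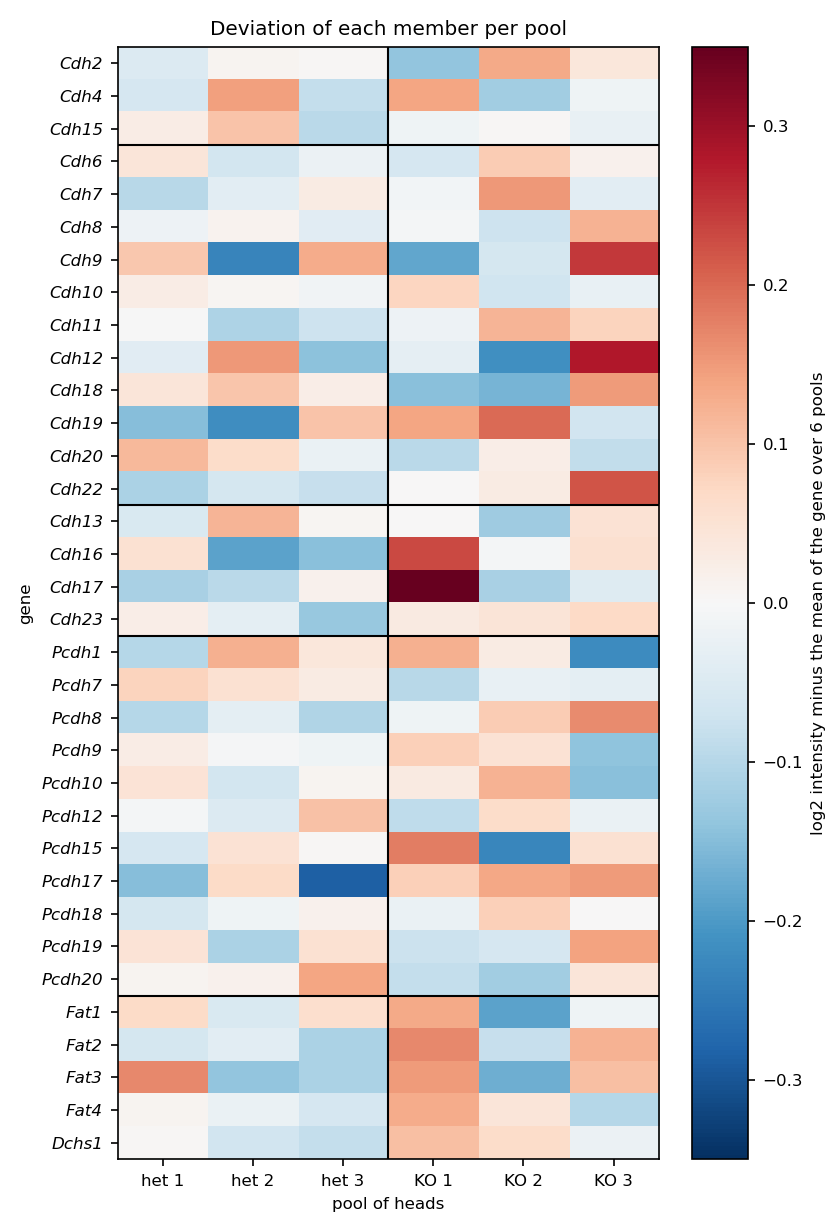
Log2 intensity of each member (rows) in each pool (columns) minus its mean over the 6 pools, red for above and blue for below, with lines between the genotypes and the classes. The strongest colors fall mostly in the knockout columns and in dim members such as Cdh9, Cdh12 and Cdh17.

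The 77 genes listed beside the members were partners of these cadherins, with Cdh1, Cdh3 and Cdh5 counted among them here and in later counts. Of these 77, 70 were measured and none passed the adjusted threshold (lowest adjusted p = 0.37, limma). Without adjustment, 3 were higher and 4 lower (Cdh1, Cdh3, Jup and Tead4) at p under 0.05, beside 5.97% and 4.66% of all probe sets. The counts are near that background. Of the 70, 48 lay in the bright class, where 0.716% of probe sets were higher and 6.71% lower. The catenins and adaptors, which tie the cadherin tail to actin, were measured for 12 of 12, with 4 log2 fold changes above 0 and 8 below. Ctnnd2, the delta-catenin of neurons, was at 7.04, 6.88 and 6.90 against 7.08, 7.11 and 7.12 (log2 fold change 0.16, limma adjusted p = 0.42). Jup, or plakoglobin, which also builds desmosomes, was at 9.22, 9.32 and 9.33 against 9.15, 9.18 and 8.87 (log2 fold change -0.22, limma adjusted p = 0.45). Ctnnb1, or beta-catenin, had -0.02.

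The Fat and Dachsous pathway with the Hippo core was measured for 17 of 19 genes, with 3 above 0, 14 below and a median of -0.04. That list lay mostly in the bright class (14 of 17), where the median of all probe sets was -0.035. Tead4, a DNA-binding partner of Yap1, was at 7.78, 7.92 and 7.85 against 7.70, 7.72 and 7.39, which is the lowest estimate of the list (-0.24, limma adjusted p = 0.44), and without knockout replicate 3 it was -0.14. Yap1 had -0.05 and Fjx1, the kinase-like regulator of Fat and Dachsous binding, had -0.002.

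The tip link partners of Cdh23 and Pcdh15 were measured for 9 of 12, with 7 above 0 and 2 below. Of the 9, 4 lay in the dim class and 5 in the middle class, where 69.6% and 49.8% of all probe sets were above 0. Tmie, a subunit of the transduction channel of hair cells, was at 5.29, 5.23 and 5.23 in heterozygotes and at 5.53, 5.43 and 5.49 in knockouts. The groups stood apart, with a log2 fold change of 0.24 (SE 0.06, limma adjusted p = 0.37), and 1-pool omissions gave 0.21 to 0.26. Tmc2, the pore protein of that channel, was at 4.52, 4.46 and 4.42 against 4.68, 4.59 and 4.62 (log2 fold change 0.16, limma adjusted p = 0.41). It was 0.10 with cyclic loess normalization. Hair cells arise well after E8.5. Tmie lay in the middle class, where 6.72% of probe sets were higher and 8.99% had knockouts wholly above. Tmc2 lay in the dim class, where 10.5% were higher and 12% had knockouts wholly above.

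The lists of WAVE complex partners, cadherin processing genes and repressors of Cdh1 held no gene at an unadjusted p under 0.05. Partners in the WAVE complex (10 of 11 measured) ran from -0.06 for Abi1 to 0.03 for Wasf1. Genes for cadherin processing (12 of 13 measured), among them the proteases that cut cadherins and the enzymes that add their sugars, ran from -0.12 for Pofut1 to 0.13 for Tmtc2. The repressors of the epithelial cadherin (7 of 7) ran from -0.12 for Snai1 to 0.07 for Zeb1.

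The 3 cadherins left out of the member list, which were counted with the partner genes above, were measured as well. Cdh1, the epithelial cadherin, was at 9.53, 9.63 and 9.56 in heterozygotes and at 9.51, 9.37 and 9.19 in knockouts, and Cdh3, the placental cadherin, was at 8.27, 8.58 and 8.51 against 8.26, 8.27 and 8.16. In both the knockout pools lay below the heterozygote pools, with log2 fold changes of -0.22 and -0.23 (limma adjusted p = 0.44 and 0.43). Without knockout replicate 3, Cdh1 had -0.14 and Jup -0.12. Cdh5, the endothelial cadherin, had -0.05. Of 7 surface ectoderm markers, which include Cdh1 itself, all 7 were below 0, 3 of them at an unadjusted p under 0.05. That share was 4.66% lower over all probe sets. Of the 7, 5 lay in the bright class, where 6.71% were lower and 29.8% were above 0. Their summed intensity was 6770 to 7015 in heterozygotes and 5740 to 6386 in knockouts. The part of surface ectoderm in the values of Cdh1, Cdh3 and Jup was not tested. A difference between Cdh2 and Cdh1 within the pools was not tested either.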

How the data were processed

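RNA from pools of 4 E8.5 heads, 3 pools each of Jarid1b heterozygotes and knockouts, was measured on mouse Gene ST arrays of Affymetrix. The authors ran RMA in Affymetrix Power Tools, per the submitters' processing notes (versions not given in the sources used here), which subtracts background, normalizes between arrays and combines the probes of a set, and deposited intensity values on a linear scale, with array medians between 58.1 and 62.9. Normalization between arrays makes them more alike, so a shift of most genes in 1 direction could have been removed by it. The deposited arrays did not share 1 distribution, since their medians differed. Quantile normalization also moved the share of probe sets higher at an unadjusted p under 0.05 from 5.97% to 4.13%.

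Log2 of these intensities was taken. The design had assumed log2 values and was otherwise kept. Of 35556 probe sets, the 21789 with a single gene symbol in the platform annotation were tested, 1621 named several genes and 12146 none. Of the tested, 21698 were matched by gene number to RefSeq GRCm38.p6. The deposited values name no genome build, so the coordinates given are those of RefSeq start sites. Genotypes were compared with limma 3.58.1 (lmFit, eBayes) in R 4.3.3, with no covariate and Benjamini-Hochberg adjustment over all tested probe sets, and the script was tested on simulated data. With 3 pools against 3, an exact permutation test cannot go below p = 0.1. Precision is limited by the 6 arrays. P-values rest on the spread of these pools, which the methods treat as biological replicates.

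The members, partner lists, marker lists and tests were chosen with earlier results of these data known. Named genes were all members, Jarid1b, and of each partner list the genes at an unadjusted p under 0.05 or else its highest and lowest. Per-pool values were given for members at that p or with groups that did not overlap, for Cdh2, Cdh11, Fat1, Fat4 and Dchs1, and for the widest range in each group. Ctnnb1, Yap1, Fjx1, Cdh5 and the second probe sets of Cdh18, Pcdh15 and Fat3 were added after their values were seen. Alternatives left out dim probe sets, used all probe sets, averaged the probe sets of a gene, applied quantile or cyclic loess normalization, changed the variance model, weighted the arrays, blocked on the replicate number, or left out each pool. Leaving out both pools low in Xist was chosen after seeing the data. It left heterozygote pools with Uty at 5.77 against knockout pools at 7.20 and 7.17. Y-linked RNA and genotype cannot be told apart in it.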

Additional observations from a re-analysis of the deposited data

How the results depend on the processing

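No member passed the adjusted threshold under any of 15 alternatives (lowest adjusted p = 0.34, limma), and Jarid1b passed it in all of them (log2 fold change -1.60 to -1.48 without 1 pool). The call of 3 higher members changed with the scaling and with single pools. With quantile normalization 1 was higher (Cdh11) and 1 lower (Pcdh20), beside 4.13% and 3.90% of all probe sets. With cyclic loess 2 were higher (Cdh11 and Pcdh17) and 1 lower (Pcdh20), beside 3.85% and 4.57% of all probe sets. Without 1 pool, 1 to 4 were higher and 0 to 1 lower, beside 4.72% to 6.35% and 2.84% to 4.94% of all probe sets, and 5 to 11 did not overlap, beside 25.6% to 30.9% of all probe sets in this smaller design. The count was 1 without heterozygote replicate 1 (Cdh16), without heterozygote replicate 3 (Cdh19) and without knockout replicate 3 (Cdh19, with Cdh18 lower). Without both pools low in Xist, 13 did not overlap, beside 40.0% of all probe sets with 2 pools against 2. The median of the members was -0.0016 with cyclic loess and 0.0078 with quantile normalization, and 0.021 to 0.036 without 1 pool. Without these changes, 7 of the 70 partner genes had an unadjusted p under 0.05 in either direction. That number was 4 with all 35556 probe sets fitted, where 5.08% of these rose and 3.50% fell at that p. It was 3 with quantile normalization, 4 with cyclic loess and 1 to 9 without 1 pool, beside the shares given above. Without both pools low in Xist it was 2, where 5.49% of all probe sets rose and 3.14% fell. Over all 21789 probe sets, 1301 (5.97%) were higher and 1016 (4.66%) lower. Of the 14526 left without dim probe sets, 650 (4.47%) were higher and 1131 (7.79%) lower. The counts were 838 (3.85%) and 995 (4.57%) with cyclic loess. They were 1055 (4.84%) and 1391 (6.38%) with a trended, robust variance model. The cause of these changes was not tested.

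The sign held for 15 members wherever they were measured, 8 of them under all 15 alternatives and 7 under 14, since these were absent once dim probe sets were left out. It turned for Cdh8, Cdh9, Cdh12, Pcdh10, Pcdh15 and Pcdh19 with quantile normalization (-0.014, -0.031, -0.012, -0.033, -0.041 and -0.034) and with cyclic loess (-0.032, -0.032, -0.015, -0.053, -0.056 and -0.042). It turned for Cdh4 and Pcdh15 with array weights (-0.017 and -0.027), and for Pcdh9 with its probe sets averaged (0.037). Without both pools low in Xist it turned for Cdh2 (-0.028), Cdh6 (-0.032), Cdh9 (-0.079), Cdh10 (0.019), Cdh13 (0.050), Cdh15 (0.014), Pcdh10 (-0.085) and Pcdh19 (-0.018). Without 1 pool, the range crossed 0 for Cdh2 (-0.039 to 0.097), Cdh4 (-0.068 to 0.071), Cdh6 (-0.0070 to 0.067), Cdh8 (-0.025 to 0.072), Cdh9 (-0.12 to 0.095), Cdh10 (-0.054 to 0.019), Cdh12 (-0.11 to 0.14), Cdh13 (-0.087 to 0.0021), Cdh15 (-0.075 to 0.022), Cdh17 (-0.014 to 0.22), Pcdh1 (-0.12 to 0.055), Pcdh9 (-0.047 to 0.064), Pcdh10 (-0.055 to 0.080), Pcdh12 (-0.073 to 0.010), Pcdh15 (-0.087 to 0.12), Pcdh19 (-0.064 to 0.044), Fat1 (-0.13 to 0.034), Fat3 (-0.0056 to 0.15) and Fat4 (-0.0042 to 0.11).

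Replicate numbers are shared between the genotypes in the labels, but pools of 1 number did not deviate together (correlations 0.001, 0.11 and -0.01). Blocking on the replicate number (the replicate block) left 2 members higher (Cdh16 and Pcdh17), 0 lower, 5 without overlap, a median of 0.022 and 5 partner genes at an unadjusted p under 0.05, beside 6.06% of all probe sets higher, 3.95% lower and 17.1% without overlap. Dim probe sets limit the reading, since only 19 of the 34 members remained once dim probe sets were left out.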
